A study of Mus musculus with 2 samples.

Results

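The clustered protocadherin genes are arrayed in 3 neighbouring clusters, alpha, beta and gamma, on mouse chromosome 18. The members described here are the protein-coding genes of the GENCODE vM21 annotation on that chromosome whose symbols start with Pcdha, Pcdhb or Pcdhg followed by a, b, c or a digit. This rule, which used no measured value, gave 57 of 21853 protein-coding genes, 14 in the alpha cluster, 22 in the beta cluster and 21 in the gamma cluster. GENCODE gives the symbol Pcdha11 to 2 neighbouring genes, and the one that starts at position 37005203 is called Pcdha10 here, its RefSeq name. Pcdhgb8 is annotated as a polymorphic pseudogene and is therefore no member.

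The assay was DNase-seq, in which nuclei are treated with the nuclease DNase I and the released ends are sequenced, so that accessible DNA is marked. The tissue was neural tube, the embryonic precursor of brain and spinal cord, from B6NCrl mouse embryos 11.5 days old, healthy, with both sexes pooled and no treatment named. The 2 samples form 1 group and are called replicate 1 and replicate 2. They are separate biological replicates under the same donor label. With 1 group of 2 libraries there is no comparison of conditions, and no test was run, since genes, promoters and peaks in a library are not replicates.

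Protocadherins of these clusters are cell adhesion proteins of neurons that bind the same isoform on a facing membrane, and the combination of isoforms in a neuron lets its own branches recognise and avoid each other. In the alpha and gamma clusters each variable exon has a promoter of its own and is spliced to constant exons shared by the whole cluster, whereas each beta gene is complete in itself. Most promoters are chosen at random in each neuron, while the c-type isoforms at the ends of the alpha and gamma clusters are expressed more widely. The insulator protein CTCF and cohesin are known to bring chosen promoters together with enhancers, some of which lie downstream of the constant exons.

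The deposited lists hold 199653 distinct peaks for replicate 1 and 154324 for replicate 2, each a window of 150 bp with a score, and broader regions called hotspots, each with a −log10 q-value. The score is the authors' own, and the sources used here do not say what it stands for. It was used to rank peaks within a list, as the percentile of a peak in its own list, where 100 is the top. A percentile from one list is not a measure of change against the other. Read counts are not among the deposited values, so the depth is unknown. The labels list different sets of Illumina sequencers for the libraries. In this bulk tissue, a promoter open in few cells and a promoter weakly open in many cells cannot be told apart. The label of the tissue was checked on promoters. Both libraries held a promoter peak for 10 of 10 genes of neural progenitors and 8 of 8 of neurons, for 2 of 5 erythroid genes and 2 of 4 endothelial genes, and for 0 of 3 liver genes. A further endothelial gene, Tek, had promoter peaks in replicate 2 only. Over all protein-coding genes 66.5% had a promoter peak in both libraries, so these short lists are a coarse check.

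A member was called open at its promoter, or said to have a promoter peak, if at least 1 bp of a peak fell within 500 bp of one of its transcription start sites (TSSs). By this measure 50 of 57 members had one in replicate 1 and 26 of 57 in replicate 2. Over all protein-coding genes the share was 68.5% in replicate 1 and 67.7% in replicate 2. The member shares, 87.7% and 45.6%, thus lay above that background in one library and below it in the other. Their mean was 66.7% ± 29.8 (SD, n = 2). Both libraries held a promoter peak for 25 members, against 66.5% of all protein-coding genes. This count asks for a peak in the window of each library, not for the same site. In Pcdha12, Pcdhac2, Pcdhb10 and Pcdhga1, which it includes, no promoter peak of one library overlapped a promoter peak of the other. Replicate 1 alone held a promoter peak for 25 members, whereas 1.96% of all protein-coding genes had theirs in replicate 1 only. Replicate 2 alone held one for 1 member, Pcdhb5, against 1.17% of all protein-coding genes. Neither library held one for 6 members, against 30.4% of all protein-coding genes.

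The counts differed when the lists were made equally long. When replicate 1 was reduced by score to as many peaks as replicate 2, 24 members had a promoter peak in it, against the 26 of replicate 2. By cluster these were 5 against 3 in alpha, 0 against 6 in beta and 19 against 17 in gamma. The share over all protein-coding genes in replicate 1 was then 67.2%. In the higher-scoring 50% of each list, 17 members of replicate 1 and 12 of replicate 2 had a promoter peak. The part of list length, the sequencers or depth in the difference between the libraries was not tested.

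**Figure D1:**
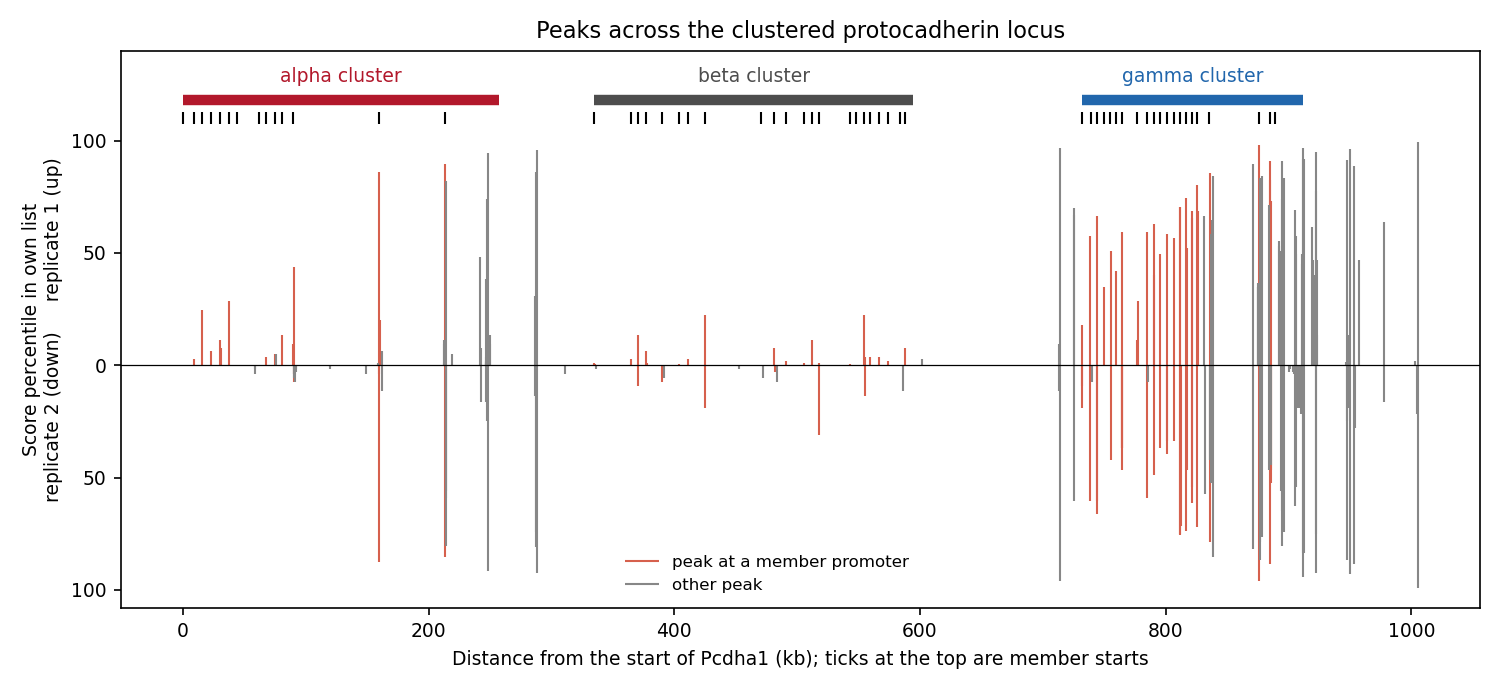
Peaks across the locus by distance in kb from the start of Pcdha1, with the score percentile of each peak in its own list as the height, replicate 1 upward and replicate 2 downward. Coloured bars mark the clusters and ticks the 57 member starts; tall peaks in both libraries stand in the gamma cluster and downstream of it, in the downstream part of the alpha cluster, and in the intervals to either side of the beta cluster, which itself carries peaks at the 31.0 percentile and lower.

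The 3 clusters differed in how their promoters ranked. In replicate 1 the highest promoter peak of a member lay at a median percentile of 13.4 in the 11 alpha members that had one, 2.73 in the 19 beta members and 59.5 in the 20 gamma members. The same medians in replicate 2 were 85.4 in 3 alpha members, 11.4 in 6 beta members and 60.3 in 17 gamma members. Over all protein-coding genes with a promoter peak the median was 95.7 in replicate 1 and 94.7 in replicate 2. The alpha median of replicate 2 comes from the c-type genes and Pcdha12 alone. A promoter peak above the median score of its list was found in 2, 0 and 15 members of the alpha, beta and gamma clusters in replicate 1, and in 2, 0 and 10 in replicate 2. The background share was 65.2% and 64.6% of all protein-coding genes.

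**Figure D2:**
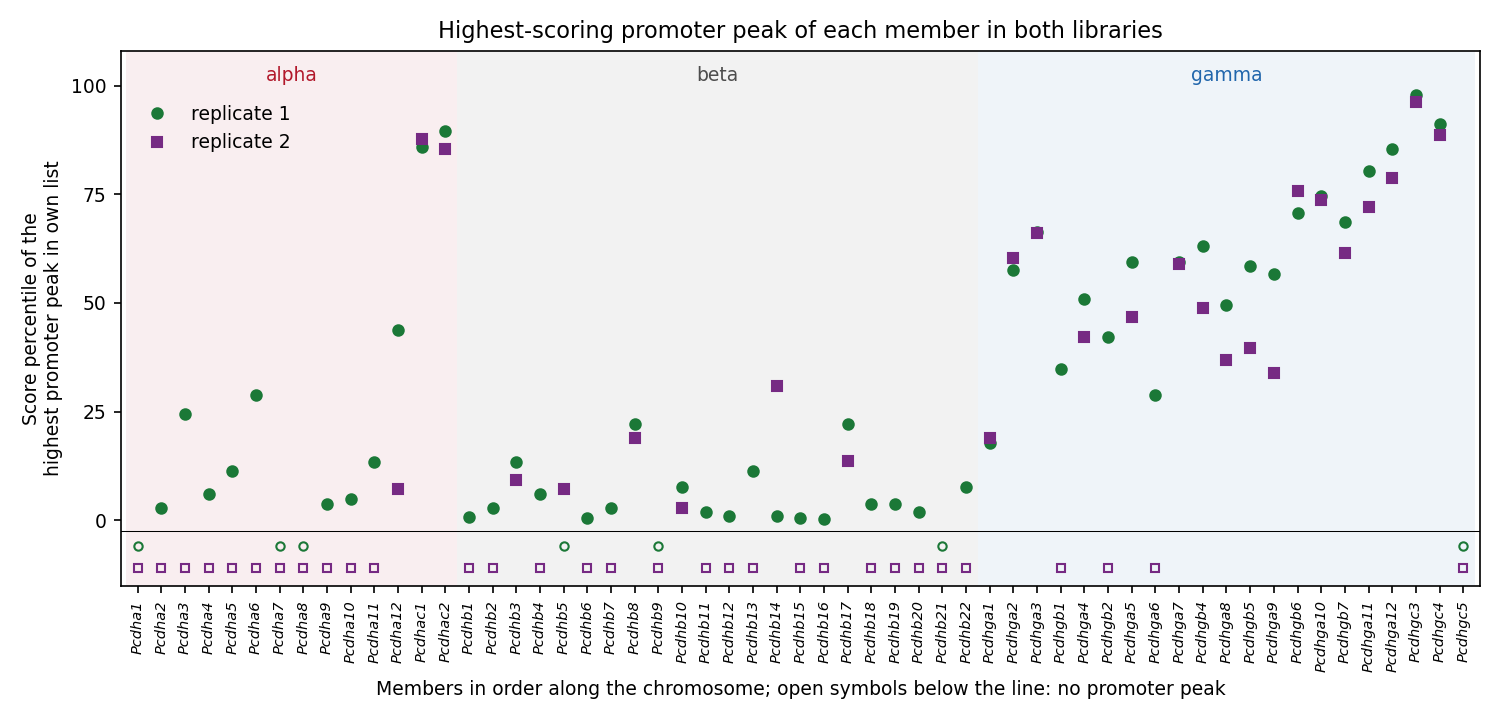
Score percentile of the highest promoter peak of each of the 57 members, in order along the chromosome, with circles for replicate 1 and squares for replicate 2; open symbols below the line mark members with no promoter peak. Most alpha and beta members sit under 25 and lack a square, and the gamma members with a peak in both libraries sit between 17.8 and 97.8.

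In the alpha cluster the c-type genes stood apart from the genes numbered 1 to 12. Pcdhac1, whose TSS is at position 37090013, had a promoter peak with a score of 95 in replicate 1 and 75 in replicate 2, at percentiles of 85.9 and 87.8. Pcdhac2, the last member of the cluster, with its TSS at position 37143503, had scores of 104 and 68, at percentiles of 89.5 and 85.4. Both genes were high in both libraries, and both lay in a hotspot at a −log10 q of 100, the highest value in the lists.

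Of the 12 other alpha members, which are the isoforms chosen at random in single neurons, 9 had a promoter peak in replicate 1 and 1 in replicate 2. Their scores in replicate 1 ran from 19 to 41, a range of 2.73 to 43.7 in percentile. Pcdha12, the last of the 12, had the score of 41 in replicate 1 and 9 in replicate 2, at percentiles of 43.7 and 7.27. Its peak of 41 was centred 561 bp downstream of the start and overlapped the edge of the window, while its peak at -19 bp had a score of 24, at a percentile of 9.48. Pcdha6 had a score of 33 and Pcdha3 of 31 in replicate 1, both above that peak at the start of Pcdha12, and neither had a promoter peak in replicate 2. Pcdha1, the first member, had none in either library, nor had Pcdha7 or Pcdha8. For these 3 the nearest peak of replicate 1 lay at 8885, -6212 and 5479 bp from the TSS, where a negative value is upstream. No alpha member of this group lay in a promoter hotspot at a −log10 q of 100, whereas 64.7% and 62.5% of all protein-coding genes did in replicates 1 and 2.

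Beta promoters were open in most members in replicate 1 and at the bottom of the list. The 19 beta members with a promoter peak in replicate 1 had scores of 12 to 30, with a median of 19. In replicate 2 the 6 members with one had scores of 6 to 18, with a median of 11. Pcdhb8 ranked highest over both libraries, with a score of 30 in replicate 1 and 14 in replicate 2, at percentiles of 22.2 and 18.9. Pcdhb17 had scores of 30 and 12, at percentiles of 22.2 and 13.6, and was the beta member whose promoter hotspot reached 100 in replicate 1, against 2.02 in replicate 2. Pcdhb14 had scores of 16 and 18, at percentiles of 1.08 and 31.0, so that the libraries put it at different ends of the beta cluster. Pcdhb5, the member found in replicate 2 only, had a score of 9 there, at a percentile of 7.27, and its nearest peak in replicate 1 lay -12451 bp away.

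The first beta gene, Pcdhb1, had a score of 15 in replicate 1, at a percentile of 0.783, and no promoter peak in replicate 2. The last, Pcdhb22, had a score of 23 in replicate 1, at a percentile of 7.72, and none in replicate 2. Pcdhb9 and Pcdhb21 had none in either library, with their nearest peaks of replicate 1 at 10795 and 4669 bp from the TSS. Thus 14 beta members were open in replicate 1 only and 5 in both.

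Gamma promoters were open in the largest share of members in both libraries, 20 of 21 in replicate 1 and 17 in replicate 2. The mean share was 88.1% ± 10.1 (SD, n = 2). The alpha mean was 50% ± 40.4 and the beta mean 56.8% ± 41.8 (SD, n = 2). The gamma cluster holds 3 kinds of variable exon, called a, b and c. All 12 members of kind a had a promoter peak in replicate 1 and 11 in replicate 2, and of kind b 6 of 6 and 4 of 6. Pcdhga6, Pcdhgb1 and Pcdhgb2 were the gamma members with one in replicate 1 only, with scores of 33, 36 and 40 there.

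Pcdhgc3, a c-type isoform, had the highest promoter peak of all members in both libraries. Its TSS is at position 37806410, and its scores were 136 in replicate 1 and 115 in replicate 2, at percentiles of 97.8 and 96.2. Pcdhgc4, a c-type isoform known for its part in the survival of neurons, had scores of 109 and 78, at percentiles of 91.1 and 88.6. Pcdhgc5, the last member of the cluster with its TSS at position 37819513, had no promoter peak and no promoter hotspot in either library. Its nearest peak lay 2824 bp downstream in replicate 1 and -3263 bp away, upstream, in replicate 2. Farther downstream, a peak found in both libraries, with scores of 73 and 36, lay in annotated exons of Pcdhgc5 and the noncoding transcript Gm38182. Of the 5 c-type genes of both clusters, 4 thus ranked above the 85 percentile in both libraries and 1 had no promoter peak.

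Among gamma members of kinds a and b, promoters ranked higher toward the downstream end of the cluster. The 9 upstream members, Pcdhga1 to Pcdhga7, had percentiles of 17.8 to 66.3 in replicate 1, with a median of 50.9, and 6 of them had a promoter peak in replicate 2. The 9 downstream members, Pcdhgb4 to Pcdhga12, had percentiles of 49.5 to 85.5 in replicate 1, with a median of 68.6, and all 9 had a promoter peak in replicate 2. In replicate 2 the medians of those with a peak were 52.8 and 61.5, and the ranges overlapped in both libraries. Spearman's rho between order along the chromosome and percentile was 0.71 over 18 genes in replicate 1 and 0.54 over 15 genes in replicate 2. This is a description across neighbouring genes of the same library.

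Pcdhga1, the first gamma member, was the lowest of kind a by score, with 28 in replicate 1 and 14 in replicate 2, at percentiles of 17.8 and 18.9. Pcdhga12, the last of kind a, was the highest of the kinds a and b in both libraries, with scores of 94 and 54, at percentiles of 85.5 and 78.8. Pcdhgb6 had scores of 68 and 49, at percentiles of 70.6 and 75.7. Over the 25 members with a promoter peak in both libraries, the percentiles of the libraries had a Spearman's rho of 0.96, so that members kept a like order, across genes that are not independent.

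Low-ranked promoters were often missing from the list of replicate 2 over all protein-coding genes too, a set that includes the members. Among all protein-coding genes whose highest promoter peak lay under the 10 percentile in replicate 1, 19.5% of 133 had a promoter peak in replicate 2, and among members in that band 2 of 19 did. Between the 10 and 25 percentiles the figures were 38.0% of 179 genes and 4 of 8 members, and between 25 and 50 they were 65.6% of 410 genes and 2 of 6 members. From 50 to 75 they were 94.5% of 1028 genes and 11 of 11 members. Under the 10 percentile in replicate 1 stood 19 of 50 members, against 133 of 14963 protein-coding genes with a promoter peak. No test was run on these counts.

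Most promoter peaks sat close to the annotated start. In replicate 1 the centre of the highest promoter peak lay within 100 bp of a TSS in 39 of 50 members, and in replicate 2 in 17 of 26. Over all protein-coding genes with a promoter peak this was 67.4% and 69.4%. In beta genes 16 of 19 were within 100 bp in replicate 1, and their median offset was -30 bp. Gamma members had a median offset of 0 bp in replicate 1 and 14 bp in replicate 2.

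**Figure D3:**
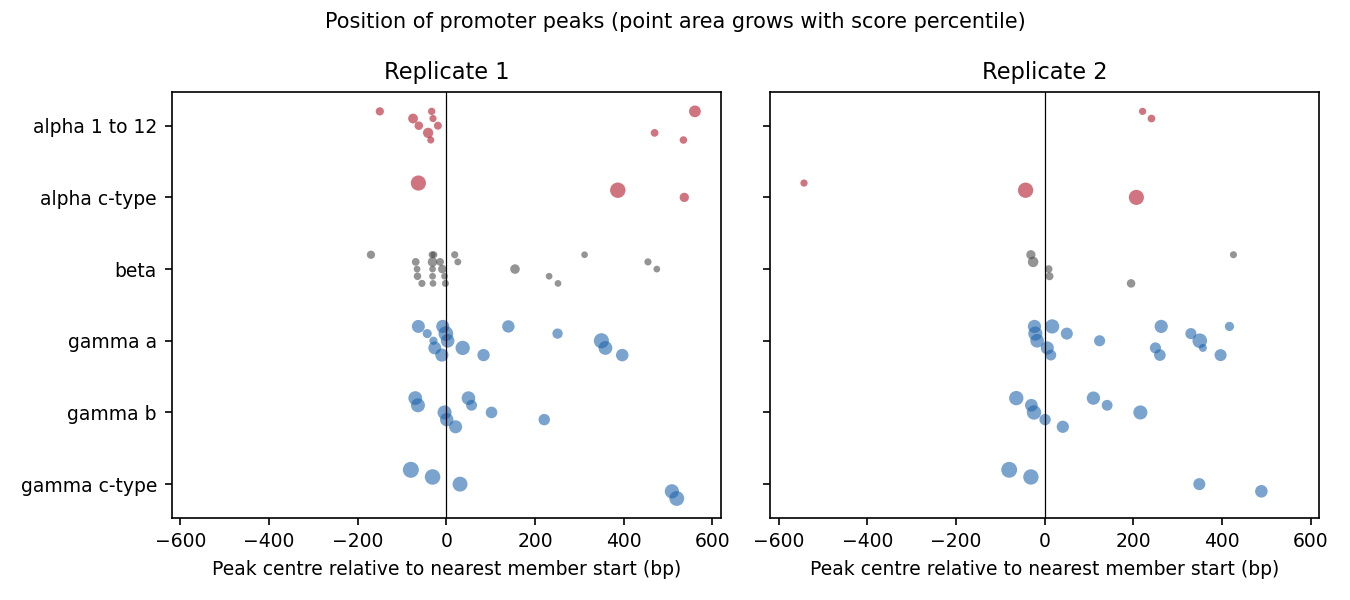
Centre of each promoter peak relative to the nearest member TSS in bp, with negative values upstream, for 6 subgroups and both libraries; the area of a point grows with the score percentile. Most points lie near 0, and some points of all 3 clusters lie 350 to 561 bp downstream.

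Some members of all 3 clusters also had peaks farther downstream of the start. In replicate 1 Pcdha4 had its promoter peak at an offset of 535 bp, Pcdha5 had a second one at 470 bp with a score of 23, and Pcdha12 had its higher one, with the score of 41, at 561 bp. In the beta cluster, Pcdhb4 had a second peak at 475 bp and Pcdhb17 at 455 bp in replicate 1, and Pcdhb10 had its peak at 426 bp in replicate 2. These beta peaks had scores of 16, 20 and 6. Pcdhga12 had its highest promoter peak at 350 bp in both libraries. Pcdhac2 had its highest at 387 bp in replicate 1 and 207 bp in replicate 2. In all, 14 members had more than 1 promoter peak in replicate 1 and 10 in replicate 2. These offsets near the edge of the window mark the members closest to the limit of the rule, and when the centre of the peak must lie inside the window, Pcdha4 has no promoter peak and the highest score of Pcdha12 in replicate 1 is 24.

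Variable exons were taken as the first exons of the protein-coding transcripts of the members. Further into them, beyond the promoter windows, replicate 1 held 8 peaks and replicate 2 held 27. In the beta cluster these were 0 and 5. The 5 beta exons were those of Pcdhb1, Pcdhb5, Pcdhb9, Pcdhb10 and Pcdhb21, with scores of 5 to 11 and centres 1735 to 2329 bp downstream of the start, and none of these peaks overlapped a peak of replicate 1. In the gamma cluster such peaks numbered 5 and 13, and the 5 of replicate 1 lay in the exons of Pcdhga12 and Pcdhgc3. The strongest in Pcdhga12 had scores of 91 in replicate 1 and 68 in replicate 2, and lay 48 bp from an annotated start of the noncoding transcript Gm26672.

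Base composition set the clusters apart as well. GC content over the 500 bp to either side of the most upstream TSS had a median of 45.7% in alpha, 41.3% in beta and 47.1% in gamma members, and of 54.9% over all protein-coding genes. In 45 of 57 members it was below the lower quartile of all genes, 47.6%. The c-type genes were the richest alpha and gamma members, with 55.8% for Pcdhac1, 57.7% for Pcdhac2, 58.4% for Pcdhgc3, 52.7% for Pcdhgc5 and 50.4% for Pcdhgc4. CpG dinucleotides, given as observed over expected, had a median of 0.684 in alpha, 0.378 in beta and 0.594 in gamma members, against 0.561 over all genes. Pcdhgc5, the c-type gene with no promoter peak, had 0.233, the lowest of the gamma cluster. Pcdhga12, which ranked high, had 0.318 and a GC content of 38.9%, the lowest GC content of the gamma cluster. These values are of the whole window. The highest promoter peak of Pcdhga12, 350 bp downstream of the TSS in both libraries, had a GC content of 54%.

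**Figure D4:**
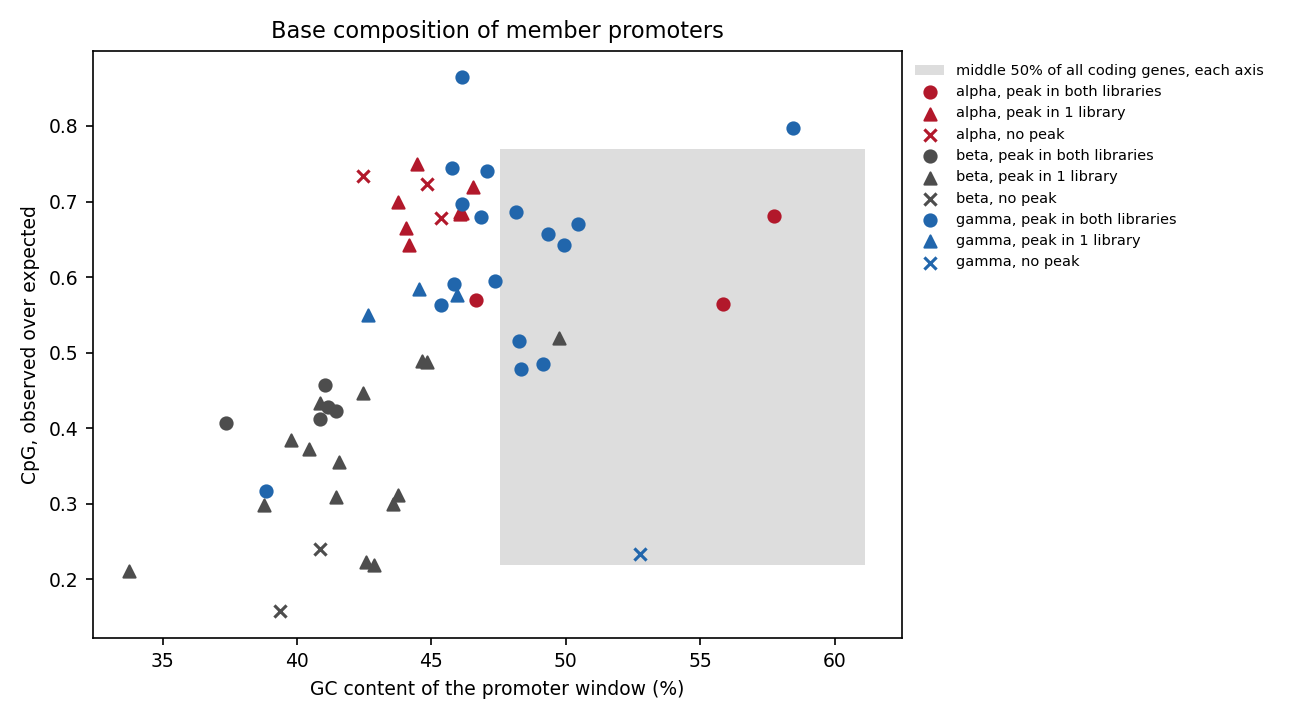
GC content in % and CpG observed over expected of the 57 member promoters, coloured by cluster, with a different symbol for a promoter peak in both libraries, in 1 library and in none; the grey box spans the middle 50% of all protein-coding genes on each axis. Beta members sit at the left, from 33.8% GC, and 21 of 22 lie below the lower quartile of GC content. In CpG, 3 of them lie below the lower quartile. The alpha members numbered 1 to 12 sit outside the box at 42.5% to 46.7% GC.

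Within a cluster, GC content and the percentile in replicate 1 had a Spearman's rho of 0.54 over 11 alpha members, -0.42 over 19 beta members and 0.51 over 20 gamma members. These are descriptions across genes that share a library and base composition. In the alpha and gamma clusters the c-type genes with a promoter peak were highest in both GC content and percentile. The values of rho include them, and rho without them is not given here. The part of base composition in the ranks was not tested.

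Paralogous promoters share sequence, and reads that match more than 1 place in the genome are hard to assign. The share of 32-base words in the promoter window that occur once on the main chromosomes was therefore computed. It was 71.3% to 90.6% in the alpha members numbered 1 to 12, 84.2% to 100% in beta members, 93.9% to 100% in gamma members of kind a and 71.0% to 100% in those of kind b. All 5 c-type genes had 100%. In 12 of 22 beta members every word was unique. Between this share and the percentile in replicate 1, Spearman's rho was 0.10 over 11 alpha, 0.11 over 19 beta and 0.16 over 20 gamma members. The alpha and gamma values include the c-type genes with a promoter peak, which had 100% and ranked highest or near it. The values of rho without these genes are not given here, so those printed do not describe the other alpha members alone. The sources used here do not give the length of the reads, and the part of repeated sequence in the result was not tested.

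Matches to a short consensus of the CTCF motif, CCNNNAGNNGGC on either strand, were counted in the window of 500 bp to either side of the most upstream TSS. A match was present in 22 of 57 members, against 25.2% of all protein-coding promoters. By cluster these were 12 of 14 alpha, 2 of 22 beta and 8 of 21 gamma members. Of the 27 matches, 25 lay on the strand of the gene and 2 on the other. Over all protein-coding promoters the strands had 3428 and 3172 matches. In 9 of the 12 alpha members numbered 1 to 12 the match lay 191 to 235 bp downstream of the start, inside variable exons whose sequences resemble each other, so that these are not independent matches. With 1 more fixed letter, CCANNAGNNGGC, 1 member, Pcdhac2, had a match, against 7.01% of all promoters. These letters are a loose consensus, and a match is no binding site.

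Between the promoters, peaks gathered at the downstream ends of the alpha and gamma clusters. The locus, from 20 kb upstream of Pcdha1 to 100 kb downstream of the gamma cluster, held 139 peaks in replicate 1 and 123 in replicate 2 over 1032 kb, or 1.35 and 1.19 peaks per 10 kb. The genome had 0.753 and 0.582 peaks per 10 kb. Of these peaks, 66 in replicate 1 and 39 in replicate 2 lay at member promoters. Of the other 73 and 84, 36 and 39 overlapped a peak of the other library. The share of all peaks of the lists that do so is not given here. The counts of overlap in this locus therefore have no background and are not a trait of the locus. Hotspots covered 5.15% and 3.92% of the locus in replicates 1 and 2, against 2.97% and 1.92% of the genome.

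The share of bases in hotspots was lower in the beta cluster than in the other clusters and the intervals between them, with 1.58% in replicate 1 and 0.796% in replicate 2. In the stretch of alpha variable exons it was 3.13% and 2.00%, and in that of gamma variable exons 10.7% and 8.07%. The alpha constant exons with their introns, positions 37156155 to 37187661, had 13.6% and 5.93%. The gamma constant exons with their introns, positions 37825021 to 37841873, had 21.4% and 55.1%, the one stretch of the clusters in which replicate 2 had more than replicate 1. The 20 kb upstream of Pcdha1 held no peak and no hotspot in either library.

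In the gamma constant stretch replicate 2 held a run of weak peaks that replicate 1 lacked. Of its 21 peaks there, 14 overlapped no peak and no hotspot of replicate 1. They spanned positions 37830076 to 37840225, about 10.2 kb, with scores of 5 to 15, at percentiles of 1.81 to 21.9. Of the 11 hotspots of replicate 2 over this span 4 were at a −log10 q of 100, and replicate 1 had 3 hotspots there. The 7 other peaks of replicate 2 in the stretch overlapped peaks of replicate 1, and the highest of those, in the last constant exon, had scores of 111 in replicate 1 and 64 in replicate 2.

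Distal peaks, centred over 1 kb away from any TSS of a coding gene, numbered 63 in replicate 1 and 69 in replicate 2. Of the 63, 30 overlapped a peak of replicate 2, again with no share over all peaks beside it. The 5 shared ones with the best mean percentile, and so chosen for their high ranks, all lay outside the variable exons. The first, at chromosome 18, positions 37842116 to 37842265, in intergenic sequence just past the gamma cluster, had scores of 132 and 104. The second, at positions 37880236 to 37880385 in an intron of Diaph1, which encodes a formin that nucleates actin filaments, had scores of 130 and 97. The third, at positions 37218236 to 37218385 between the alpha and beta clusters, had scores of 129 and 96 and lay 46628 bp from the nearest protein-coding TSS.

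The fourth, at positions 37852196 to 37852345, also in an intron of Diaph1, had scores of 125 and 96. The fifth, at positions 37178456 to 37178605, lay within the alpha constant stretch, 8 bp from an annotated start of the noncoding transcript Gm10544, and had scores of 123 and 91. All 5 lay above the 91 percentile in both libraries. They were chosen by mean percentile, so their high ranks follow from the choice. The 30 shared distal peaks ran down to a mean percentile of 8.73. No match to the short CTCF consensus was found in these windows of 150 bp, and 10.8% of all peaks of replicate 1 and 11.4% of replicate 2 held one. Of the 30 shared distal peaks of replicate 1, 9 lay within 500 bp of an annotated noncoding start. The share of other distal peaks that do so is not given here, so this count has no background.

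The interval between the alpha and beta clusters, 77.3 kb, held 3 peaks in replicate 1 and 5 in replicate 2, and all 3 of replicate 1 overlapped one of replicate 2. They stood together, with the next highest at positions 37217376 to 37217525, with scores of 95 and 47, and the lowest at positions 37216756 to 37216905, with scores of 34 and 12. GENCODE also annotates Gm37013, Gm37388 and Gm42416, predicted coding transcripts that start within the alpha cluster and span this interval, and Gm42416 starts 66 bp from a start of Pcdha4. The interval between beta and gamma holds Taf7, a subunit of the general transcription factor TFIID, whose promoter had scores of 132 and 114, and Slc25a2, a mitochondrial carrier, which had no promoter peak in either library.

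Protocadherin genes that lie outside the clusters ranked with the bulk of the genome. Of 12 such genes 11 had a promoter peak in both libraries, at percentiles of 70.0 to 99.4 in replicate 1 and 67.0 to 99.3 in replicate 2, with medians of 95.5 and 94.1. Pcdh12, a protocadherin of endothelial cells, had none. Their promoters had a median GC content of 54.5%, and 93.4% or more of the words of each were unique. Pcdh9 and Pcdh17 were among the highest, with scores of 141 and 131 and of 142 and 128. The lowest, Pcdh15, a protocadherin of hair cells, had scores of 67 and 38, inside the gamma range and above the gamma medians of 54 and 32.

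Genes known from other work as regulators of the clusters were open throughout. All 17 of them had a promoter peak in both libraries, with percentiles of 93.4 to 99.8 in replicate 1 and 92.4 to 99.9 in replicate 2. Ctcf had scores of 137 and 131, Rad21, a cohesin subunit, 134 and 124, and Smchd1, a chromatin protein that acts on the clusters, 140 and 122. Dnmt3b, a DNA methyltransferase known to methylate protocadherin promoters in the early embryo, had 123 and 103. Genes for intracellular partners, namely kinases, GTPases and members of the actin-regulating WAVE complex, had a promoter peak in both libraries in 14 of 14 cases. Ptk2b, a kinase that binds protocadherin tails, was the lowest, with scores of 49 and 22. These are descriptions of short lists, and the background share open in both libraries was 66.5%.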

How the data were processed

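DNase-seq peaks and hotspots of 2 libraries were used. Per the readme text deposited beside them, the authors called both separately in each library on mm10, without pooling. The sources used here do not give the caller, aligner or threshold. The deposited peak score is a whole number from 1 to 150, and the deposited hotspot value is a −log10 q-value. Of the peaks, 45 repeated rows of replicate 1 and 22 of replicate 2 were dropped. The annotation was GENCODE vM21 and the genome GRCm38.p6, the assembly of mm10. TSSs were those of protein-coding transcripts on the main chromosomes (54361 in all). Percentiles are mid-ranks. The members, lists and rules were chosen with earlier results of these data known. Genes named in detail are the c-type genes, the first and last of each cluster, the 3 with the highest mean percentile in each (no peak counted as 0), and those open in neither library or in replicate 2 only; others were named after their values were seen, as was the choice of 32-base words. Scripts (Python 3.11.15, numpy 2.4.6, scipy 1.17.1) were checked on simulated peaks and sequences. No interval was computed, since the depth is unknown. Alternatives were windows of 200 and 1000 bp, 1 TSS per gene, the higher-scoring 50% of each list, equal numbers of peaks, hotspots for peaks, peak centres, hotspots at a −log10 q of at least 2, an overlap of 75 bp, a stricter consensus and leaving out a library.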

Additional observations from a re-analysis of the deposited data

How the results depend on the processing

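The counts were most sensitive to which peaks entered. In the higher-scoring 50% of each list, 17 members had a promoter peak in replicate 1 and 12 in replicate 2, of which 2 and 2 were alpha, 0 and 0 beta and 15 and 10 gamma members; the median percentile of those left was 68.6 and 74.7 by construction, and 37 and 34 peaks of the locus lay outside member promoters. With equal numbers of peaks, replicate 1 had 24 members, 5 of them alpha and 0 beta, with a median percentile of 59.5 against 22.2 in the full list. Leaving out a library gave 26 to 50 members, 3 to 11 in alpha, 6 to 19 in beta and 17 to 20 in gamma. The median percentile was 22.2 to 47.8, peaks outside member promoters numbered 73 to 84, and 3.92% to 5.15% of the locus lay in hotspots. The match to the CTCF consensus fell from 22 members to 6 within 200 bp of the TSS and to 1 with the stricter consensus. A narrower window holds less sequence at any promoter, and the share over all protein-coding genes within 200 bp is not given here. Other alternatives moved no count by over 1.5 times and no value by over 1 SD. No paired analysis was possible because there is 1 group. How depth bears on the gap between the libraries was not tested, since the files hold no read counts.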
